A study of Mus musculus with 8 samples.

Results

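The cytosines described here are the CpG island cytosines of promoters that were read as methylated in 80% or more of reads, as an unweighted mean over all 8 lines of germline stem (GS) cells. There were 952 such cytosines among 156142 island cytosines and 203645 promoter cytosines in all, and they were assigned to 860 genes and 856 islands. GS cells are cultured mouse spermatogonia with stem cell activity. DNA methylation was measured by reduced representation bisulfite sequencing (RRBS) in 4 control-F1 lines (29, 37, 44 and 45), derived from mice born after natural mating, and in 4 ICSI-F1 lines (11, 17, 20 and 21), derived from mice born after intracytoplasmic sperm injection (ICSI). The sample names give the strain as B6 for both groups, the genotype is given as WT, and no line was treated. The study's methods name green mice, which express an *Egfp* transgene, as the source of the ICSI sperm. Elsewhere the study calls that sperm wild-type. The numbers of the lines match those the study gives to single F1 mice. Each line was 1 library, so the spread between lines holds biological and technical variation that cannot be told apart. The members were chosen by their mean level over all 8 lines, so their levels are given as a description with no test. Comparisons of the groups at members used these same lines, so p-values given for members are a description too.

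Cytosine methylation in mammals lies mostly at CpG dinucleotides, and since a CpG reads the same on both strands, maintenance methylation after replication normally leaves both of its cytosines in the same state. CpG islands are stretches of dense CpG at many promoters. Most of them stay unmethylated in germ cells as in other cells, and a methylated island promoter is usually silent. RRBS enriches such sequence by cutting DNA with MspI, which cuts at CCGG whether or not its inner cytosine is methylated. The cut leaves an overhang of CG that is filled in with nucleotides of the reaction before adaptors are ligated. A CCGG cytosine at the 5′ end of a fragment strand is therefore genomic, and the CCGG cytosine at the 3′ end of a fragment strand is supplied by the fill-in.

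The members lay almost all at MspI sites. The inner cytosine of a CCGG made up 935 of the 952 (98.2%), against 13.5% of the island cytosines that were no members. The share was as high, 98.4%, among the 2368 island cytosines at 40 to under 80%, whereas 47.9% of the 3345 cytosines at 80% or more outside islands, shores and shelves were in a CCGG. Stretches from the promoters with the most members are printed because they show how a member sat between MspI sites. Each is given 5′ to 3′ on the strand of its member from mm10 (RefSeq's GRCm38 sequence), lies upstream of the start of the gene and outside any annotated exon, and has every CCGG in capitals. The member is the inner cytosine of the second CCGG printed.
Socs1, chr16:10785619-10785738, plus strand: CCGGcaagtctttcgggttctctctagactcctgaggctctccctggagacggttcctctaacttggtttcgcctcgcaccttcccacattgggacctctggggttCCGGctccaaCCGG
Clasp2, chr9:113741193-113741289, plus strand: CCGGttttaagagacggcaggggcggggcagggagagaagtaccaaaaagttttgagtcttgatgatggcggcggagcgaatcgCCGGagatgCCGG
Celsr2, chr3:108415581-108415675, minus strand: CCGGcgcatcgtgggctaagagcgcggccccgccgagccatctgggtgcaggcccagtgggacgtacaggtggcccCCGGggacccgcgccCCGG
Kcnj4, chr15:79505273-79505427, minus strand: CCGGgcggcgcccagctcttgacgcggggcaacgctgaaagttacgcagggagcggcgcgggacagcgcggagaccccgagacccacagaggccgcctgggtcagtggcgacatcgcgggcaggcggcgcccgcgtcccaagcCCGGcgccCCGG
Afap1l2, chr19:57008372-57008519, plus strand: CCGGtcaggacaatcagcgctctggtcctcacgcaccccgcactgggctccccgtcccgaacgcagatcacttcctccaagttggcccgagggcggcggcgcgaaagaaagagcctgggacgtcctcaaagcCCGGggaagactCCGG
Mcl1, chr3:95658503-95658555, minus strand: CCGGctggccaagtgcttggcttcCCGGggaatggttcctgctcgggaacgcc

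In the first 5 of these stretches, the member had a CCGG 76 to 143 bases upstream and a further CCGG 8 to 15 bases downstream. At *Socs1*, whose product restrains cytokine signalling, the member on the plus strand at position 10785726 was read at 99.3% and the cytosine facing it on the minus strand at 3.91%. The next CCGG, 10 bases on, showed the mirror image, with 3.90% on the plus strand and 99.3% on the minus strand. The same held at *Clasp2*, a microtubule plus-end protein, with 98.5% and 5.58% at the first of its paired CCGG sites and 5.94% and 98.6% at the second. Of the other cytosines listed within the *Clasp2* stretch, all 15 had levels between 1.64% and 5.94%. Within the stretch of *Celsr2*, an atypical cadherin of planar cell polarity, the 17 other cytosines had a median of 1.39%. The 43 other cytosines in the stretch of *Kcnj4*, an inward rectifier potassium channel, had a median of 0.906%. At *Mcl1*, an anti-apoptotic factor of the Bcl2 family, the upstream CCGG was 24 bases away and the downstream CCGG 381 bases away, and the member had a lower level of 83.0%.

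The cytosine on the other strand of the CpG was listed for 847 of the 935 CCGG members. Its level had a median of 4.39% (quartiles 3.34% and 5.73%) and did not exceed 59.6%, and it was under 10% for 772 of the 847. None of these partners reached 80%. Outside islands, shores and shelves, by comparison, 1796 of the 2115 cytosines at 80% or more with a listed partner (84.9%) had a partner that also reached 80%. The rest of the islands was low as well. In the 850 islands that held other listed cytosines, the median of the island medians was 2.25%, and 843 islands had a median under 10%. A neighbouring cytosine outside CCGG lay within 100 bases of 898 CCGG members, at a median distance of 10 bases, and 891 of these neighbours were under 10%. The data thus go against calling these islands highly methylated. With the reads of the strands of each CpG added together, 99 CpGs met the same threshold, but 93 of them had 1 strand in the table and so nothing to add. The 6 with both strands listed were all at *Gm49980*. The members are called here by their rule.

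**Figure D1:**
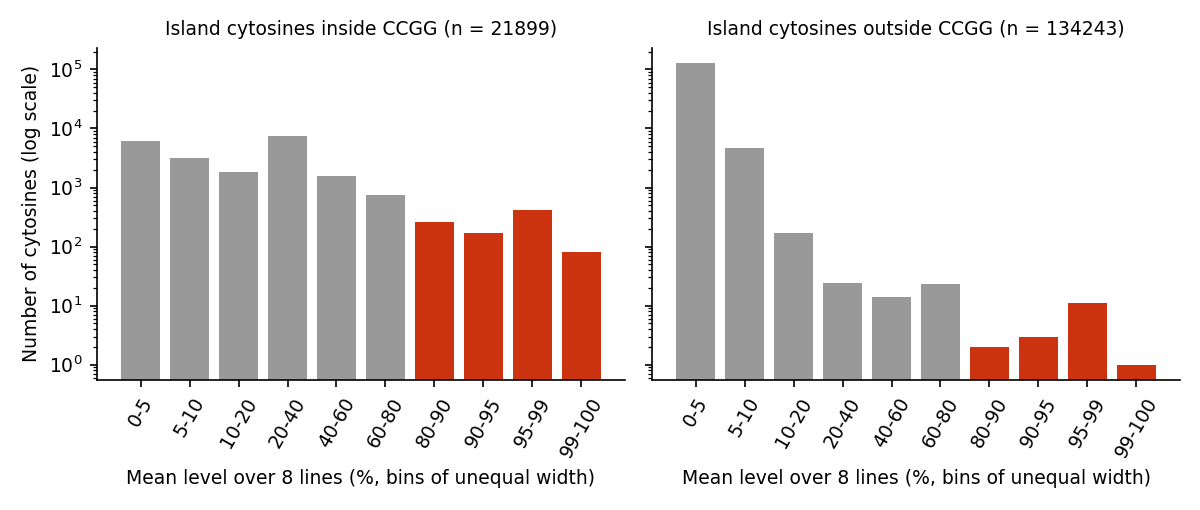
Number of island cytosines (log scale) in bins of the mean level over 8 lines, for cytosines inside CCGG (left) and outside CCGG (right), with bins at 80% or more in red. The members inside CCGG number 935 and those outside number 17.

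**Figure D2:**
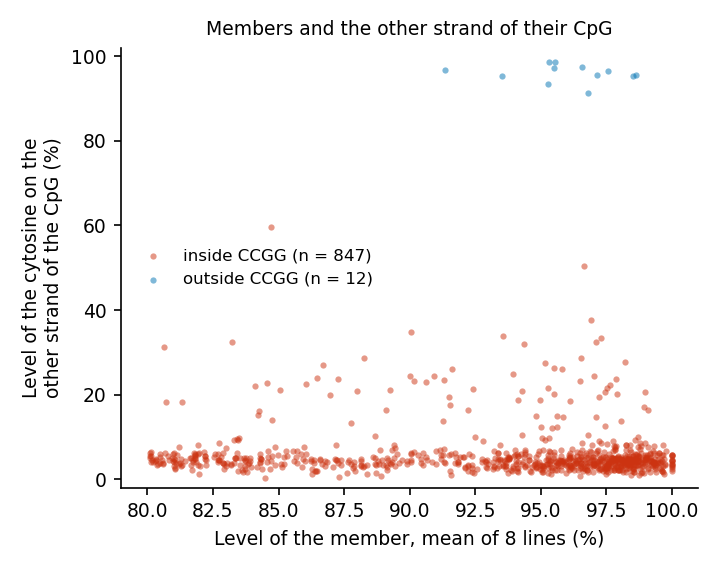
Level of each member (x axis, mean of 8 lines in %) against the level of the cytosine on the other strand of its CpG (y axis, %), for the 859 members whose partner was listed. The 847 members inside CCGG lie at the bottom, with a median partner level of 4.39%, and the 12 members outside CCGG lie at the top.

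The distance to the neighbouring MspI sites, which the rule did not use, went with membership. Of the 935 CCGG members, 934 had the next CCGG upstream on their own strand 20 to 149 bases away, which is within the sequenced read length of 150 bases. The exception, at *Mia3*, had it 593 bases away. Among all 14007 island CCGG cytosines with an upstream CCGG at 20 to 150 bases, the level depended on the downstream distance. The median level was 98.1% for the 274 cytosines with the next CCGG 1 to 20 bases downstream, 23.1% for the 5796 at 41 to 100 bases, 42.0% at over 150 to 200 bases, 66.1% at over 250 to 300 bases and 83.0% at over 350 to 400 bases. It was 96.5% for the 189 cytosines at over 600 bases, and all 189 were members. Of the 4729 island CCGG cytosines with an upstream CCGG more than 150 bases away, 1 was a member and the median level was 4.46%. Of the 3163 with an upstream CCGG less than 20 bases away, 0 were members and the median level was 3.73%. All but 132 of the CCGG members had the next CCGG within 20 bases or more than 200 bases downstream. Coverage moved with the same distances. It was 30.5 scaled reads (median) at a downstream distance of 1 to 20 bases, 112 at 41 to 100 bases and 31.1 at over 600 bases. Which fragment each read came from is not recorded in the table, and the part of the fill-in in these levels was not tested.

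**Figure D3:**
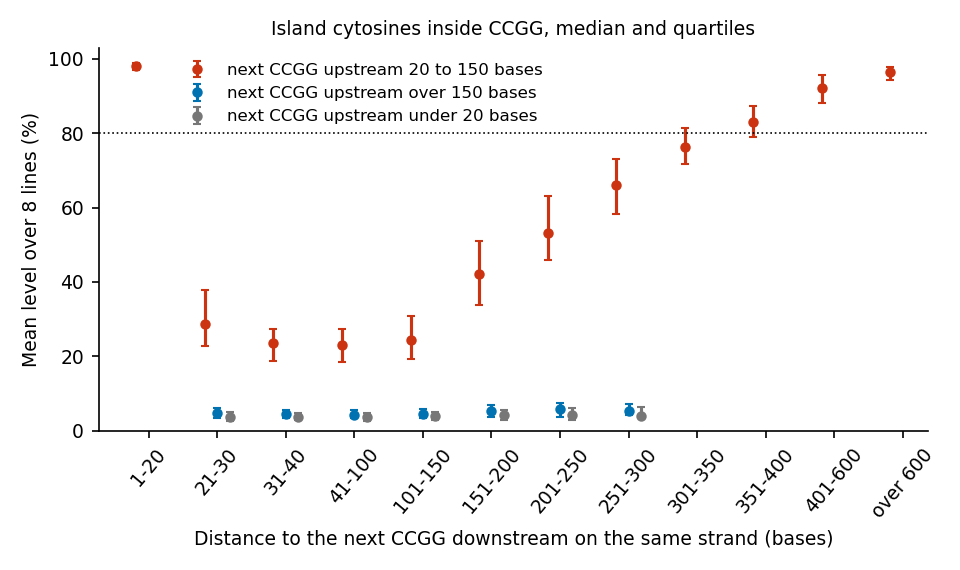
Median level (points) and quartiles (bars) of island CCGG cytosines by the distance to the next CCGG downstream, for 3 ranges of the distance to the next CCGG upstream; bins with fewer than 5 cytosines are not drawn. With an upstream site at 20 to 150 bases the medians run from 98.1% through 23.1% to 96.5%, and with the upstream site farther or nearer they stay near 4%.

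By class of downstream distance, the CCGG members numbered 266 at 1 to 20 bases, 132 at over 20 to 200, 348 at over 200 to 600 and 189 at over 600. Levels varied little among the lines in the first class, with a median SD over the 8 lines of 2.88 percentage points, and most in the class at over 200 to 600 bases, with 13.1. Of all members, 264 had a mean level of 80 to 90%, 173 of 90 to 95% and 515 of 95% or more, and 16 were at 100% in every line. They were covered by a median of 31.9 scaled reads per line, against 84.6 for all island cytosines, and their partners on the other strand by 91.3. Scaling had raised the counts of some lines: if the lowest value in each line stands for the authors' minimum of 10 reads, the median coverage of the members before scaling was 15.8 reads in line 37 and 22.9 to 33.0 reads in the other 7 lines. Because the reads were scaled, no binomial interval is given for single levels.

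Library sequencing and line 37 bear on every comparison of the groups. The study's methods give read numbers that separate the lines into 2 library sets, named so here since the labels name no batch: lines 29, 37, 11 and 17 (set 1) and lines 44, 45, 20 and 21 (set 2). Line 37 stood apart. It was the lowest of the 8 lines at 337 of the 952 members, and 259 of these were among the 348 members with the next CCGG over 200 to 600 bases downstream. In that class its mean level was 63.9%. The other control-F1 lines had 87.8% (line 29), 94.9% (line 44) and 93.7% (line 45), and the ICSI-F1 lines had 85.6% (line 11), 92.1% (line 17), 93.6% (line 20) and 95.1% (line 21). With the next CCGG 1 to 20 bases downstream, line 37 was the highest line at 98.5%, and the 8 lines lay between 96.9% and 98.5%. The shift of line 37 was not limited to members. The 615 island CCGG cytosines with upstream sites at 20 to 150 bases and downstream sites at over 200 to 250 bases showed it too. There line 37 had a mean level of 25.7% with a median of 88 scaled reads. The other set 1 lines had 45.1% to 48.9% with 52 to 57 reads. The set 2 lines had 64.5% to 71.1% with 36 to 42 reads, so the library sets differed here apart from line 37. Over all members, set 1 averaged 90.8% and set 2 95.5%, with line 37 included. In the class at over 200 to 600 bases they averaged 82.3% and 94.3%. What set line 37 or the library sets apart was not tested.

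The control-F1 lines averaged 92.0% ± 5.58 over all members and the ICSI-F1 lines 94.3% ± 1.75 (SD, n = 4 lines each). The control-F1 lines had 93.3% (line 29), 83.8% (line 37), 96.0% (line 44) and 95.1% (line 45). The ICSI-F1 lines had 91.8% (line 11), 94.2% (line 17), 95.4% (line 20) and 95.6% (line 21). The groups overlapped, and their means lay 2.23 percentage points apart, less than the SD of the control-F1 lines. Within library set 1 the ICSI-F1 mean was higher by 4.46 percentage points, and within set 2 the difference was -0.0042. Without line 37 it was -0.504. The difference was largest in the class at over 200 to 600 bases, with 85.1% ± 14.5 and 91.6% ± 4.17 (SD, n = 4 each), and without line 37 the difference there was -0.529 percentage points. The other 3 CCGG classes differed by -0.69 to 0.57 percentage points. On the other strand of the CCGG members, the control-F1 lines averaged 6.16% ± 0.903 and the ICSI-F1 lines 5.63% ± 0.997 (SD, n = 4 each), so that strand was low in both groups.

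**Figure D4:**
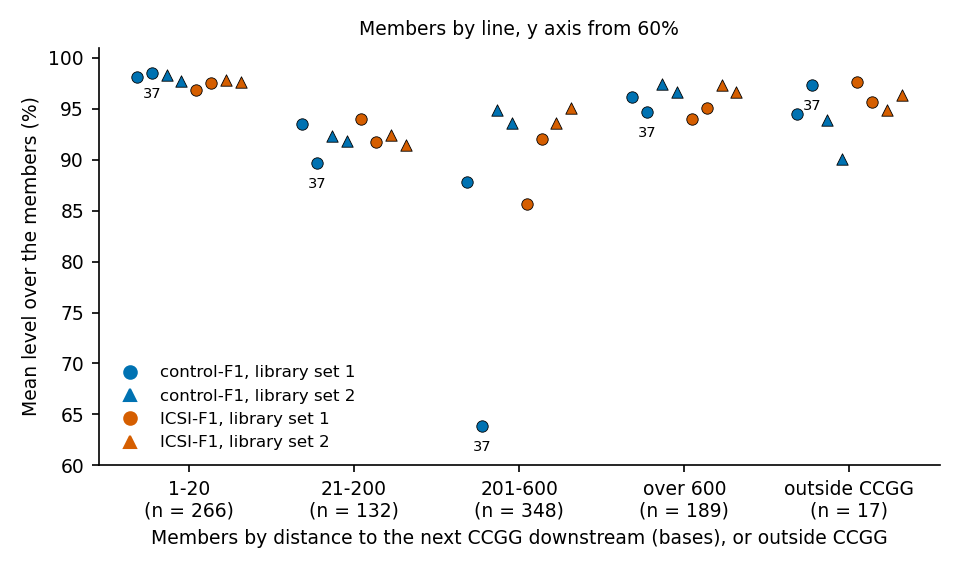
Mean level over the members in each line (points, % on an axis from 60%), by class of distance to the next CCGG downstream, with control-F1 lines in blue, ICSI-F1 lines in orange, library set 1 as circles and set 2 as triangles. Line 37 lies at 63.9% in the class of over 200 to 600 bases, where the other lines lie at 85.6% to 95.1%.

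The study called a cytosine when the group means differed by more than 20 percentage points and no line went the other way, which was taken here as every ICSI-F1 line lying on the same side of the control-F1 mean. This is 1 reading of the published wording and need not give the study's own calls. By this rule 9 members (0.945%) were hypermethylated in ICSI-F1 lines, against 0.274% of all promoter cytosines and 0.0448% of island cytosines. Hypomethylated members numbered 0 (0%), against 0.0506% of all promoter cytosines. A stricter reading, under which the groups must not overlap, called 137 promoter cytosines hypermethylated, and 0 of them were members. The study reports fewer calls of either kind than the reading used here. Its hypermethylated total, over a larger set of sites, lies nearer that of the stricter reading. A mean under 90% over the 8 lines is needed for a call in either direction, which left 264 members that could be called. The control-F1 means of the 9 were 69.4% to 75.5%, so they met the 80% rule through their ICSI-F1 lines, and the share of members called was thus in part fixed by the rule. Of the 9, 8 were CCGG members with the next CCGG over 200 to 600 bases downstream, and at the same 8 line 37 was the lowest line. None of the 9 had groups that did not overlap. Without line 37, 2 members (0.21%, against 0.2% of all promoter cytosines) were called hypermethylated, and 1 of them was among the 9. The hypomethylated members were again 0, against 0.0923% of all promoter cytosines.

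The largest of these differences was at *Npy*, the gene of the orexigenic neuropeptide Y, at chr6:49822286 on the plus strand and 424 bases upstream of the start. The control-F1 lines had 71.7% (line 29), 23.5% (line 37), 97.4% (line 44) and 94.7% (line 45), and the ICSI-F1 lines had 100% (line 11), 91.7% (line 17), 100% (line 20) and 100% (line 21). Line 37 alone was far below the rest, and the difference of 26.1 percentage points was 9.97 without it. The member at *Snapc3*, a subunit of the complex that activates small nuclear RNA genes, stood at 69.5% ± 35.0 among control-F1 and 92.6% ± 9.77 among ICSI-F1 lines (SD, n = 4 each), with line 37 at 17.6%. Its difference of 23.1 percentage points was 5.83 without line 37. At *B4galnt2*, a glycosyltransferase gene, the levels were 72.4% ± 26.5 and 95.1% ± 7.47 (SD, n = 4 each), and the difference of 22.7 was 9.87 without line 37. At *Kcnk12*, a two-pore-domain potassium channel gene, they were 69.4% ± 28.9 and 91.8% ± 9.97 (SD, n = 4 each), and the difference of 22.3 was 8.83 without line 37. Within library set 2 these 4 members differed by 3.95 to 9.12 percentage points. Their partners on the other strand were read at 3.37% to 4.97%. The other called members, named because they complete the count, were at *Bcas3*, *Sim2*, *Cysrt1*, *Napepld* and *Gm21863*, with differences of 20.2 to 21.8 percentage points. The member called without line 37 and not with it was at *Ppfia1*, a liprin of the synaptic active zone, with a difference of 24.8 percentage points without that line. This gene and those that complete the count were named after their values were seen.

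**Figure D5:**
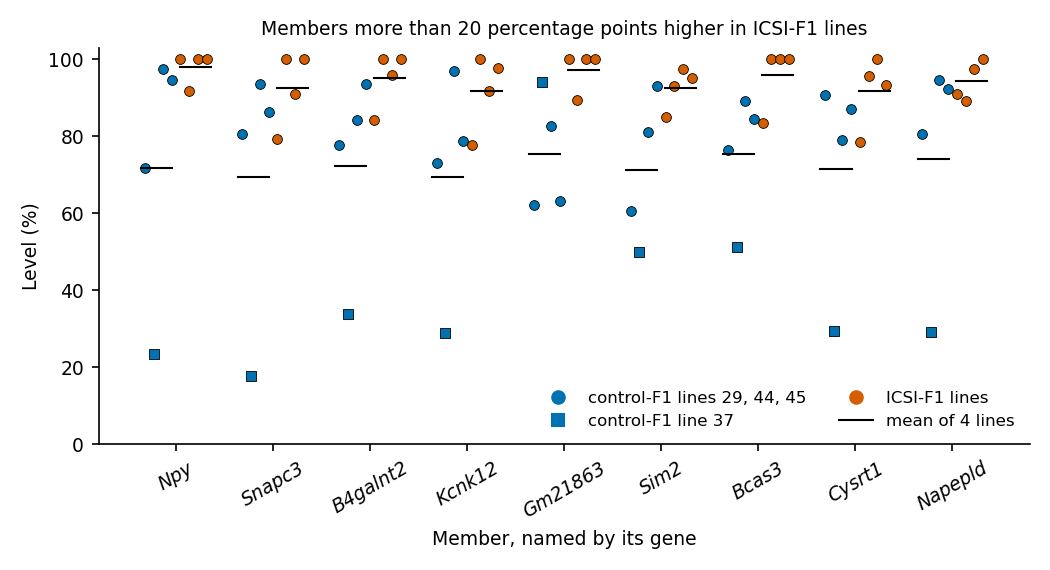
Level (%) in each line at the 9 members called hypermethylated in ICSI-F1 lines, with control-F1 lines in blue, line 37 as squares, ICSI-F1 lines in orange and the mean of each group as a bar. Line 37 is the lowest line at every site but *Gm21863*.

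A quasi-binomial logistic model with limma's moderated dispersion was fitted to the scaled reads of all promoter cytosines that varied among the lines. On the estimate above, scaling had raised the reads by a factor of 1.9 in line 37 and 1 to 1.4 in the others. Line 37 thus weighed more in the fit than its reads before scaling would have. The model gave 0 of 936 members at a false discovery rate of 0.05 (0%), and 0 of 196818 cytosines in all (0%). At an unadjusted p under 0.05 it gave 52 members. Of these, 41 were higher in ICSI-F1 lines (4.38%, against 2.6% of all cytosines tested) and 11 were lower (1.18%, against 4.47%). The members with the next CCGG over 200 to 600 bases downstream made up 39 of the 41. The smallest p among members was 0.0051, with an adjusted p of 0.702 by this limma-moderated model, at *Rpa2*, a subunit of the single-stranded DNA binding protein RPA. At *Rpa2* control-F1 lines averaged 80.7% ± 12.3 and ICSI-F1 lines 97.9% ± 2.65 (SD, n = 4 each). The direction at an unadjusted p under 0.05 depended on the fit. Unmoderated, 10 of 936 members were higher and 28 lower, beside 5662 and 9600 of 196818 cytosines. With library set as a covariate, 48 were higher and 39 lower, beside 11931 and 18407. The members were chosen by the levels of these same lines, so these counts are a description. Without line 37, 23 members had an unadjusted p under 0.05 by the same model. Of these, 9 were counted as higher (0.966%, against 1.76% of all cytosines tested) and 14 as lower (1.5%, against 5.69%). This sorting used group means that still included line 37, so it does not give the directions without that line.

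Groups that did not overlap were seen at 15 members. Every ICSI-F1 line was above every control-F1 line at 7 (0.735%, against 0.427% of all promoter cytosines), and below at 8 (0.84%, against 0.679%). Of the 7, 6 had the next CCGG over 200 to 600 bases downstream. The control-F1 lines were all at 100% at 6 of the 8. The difference ran from -11.7 percentage points at *Zdhhc12*, a palmitoyltransferase gene, to 17.2 at *Rpa2*, both named after their values were seen. Without line 37 the counts were 19 (2%, against 0.65%) and 20 (2.1%, against 2.28%). A smaller group separates more readily, and leaving out any other line raised both counts too.

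Promoters mostly held a single member: 780 of the 856 islands had 1, 66 had 2, 9 had 3 and 1 had 13. The members lay at a median of 169 bases upstream of the start of the gene, 4 of them downstream of it, and 904 belonged to protein-coding genes, 43 to lincRNAs and 5 to antisense transcripts. Besides *Gm49980*, the promoters with 3 members that are described are those of *Mia3*, *Socs1*, *Clasp2*, *Celsr2*, *Hoxa11*, *Kcnj4*, *Mcl1*, *Afap1l2* and *Sim2*. *Hes1*, a Notch target and transcriptional repressor, had 2. At *Hoxa11*, a homeobox gene of limb and reproductive tract patterning, control-F1 lines averaged 96.9% ± 2.26 over its members and ICSI-F1 lines 97.1% ± 3.89 (SD, n = 4 each), while the other island cytosines of that promoter had a median of 3.68%. At *Socs1* the members had 100%, 98.1%, 99.2% and 100% in lines 29, 37, 44 and 45 and 95.8%, 97.1%, 98.6% and 98.6% in lines 11, 17, 20 and 21. The difference was -1.83 percentage points, and the groups overlapped. At *Afap1l2*, an adaptor protein gene, the means were 91.8% ± 6.81 and 92.0% ± 1.64 (SD, n = 4 each). At *Sim2*, a basic helix-loop-helix transcription factor gene, the lines had 76.3%, 64.3%, 91.0% and 94.9% in the control-F1 group and 82.5%, 96.0%, 96.8% and 95.8% in the ICSI-F1 group, in the order above. Its difference was 11.2 percentage points, and 2 of its 3 members had the next CCGG 329 bases downstream. The means over the members of 12 named promoters were compared by exact two-sided permutation tests over the 70 arrangements of the lines. These tests gave p from 0.0857 to 1 before adjustment, and 0.0286 is the smallest p this design allows. The members were chosen by the levels of these same lines, so these p-values are a description.

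No member lay on the X chromosome, which had 1469 island cytosines and 212 island CCGG cytosines in the table. None of those 212 combined an upstream CCGG at 20 to 150 bases with a downstream CCGG at up to 20 or over 300 bases. Chromosome 6 had the most members per island cytosine among the autosomes, 65 of 6342, and 67 island CCGG cytosines there had that combination of distances. The gene lists gave few members. The list of germ cell genes (*Dazl*, *Ddx4*, *Mael* and others), whose promoters are unmethylated in germ cells and methylated in somatic cells, had 10 genes with 81 island cytosines at a mean of 5.40%, of which 0 were members. The list of paternally imprinted loci had 2 genes with 112 island cytosines at 3.90% and 0 members, and the lists for maternally imprinted, spermatid and pluripotency genes had 0 members as well. The paternally imprinted differentially methylated regions themselves were not examined, so the low promoter levels of that list say nothing of their state. The germ cell list was the only check made here of the GS cell label, and it could not decide the matter. All island cytosines averaged 5.08% (control-F1) and 4.79% (ICSI-F1), so that list was no lower than islands at large. Of its 44 genes, 10 had island cytosines in the table. RNA of these lines was not analysed here. The oocyte list had 1 member among 26 island cytosines, at *Gdf9*, an oocyte growth factor. This member had its next CCGG 373 bases downstream. Its level was 45.8% in line 37 and 80% to 100% in the other 7 lines. Zinc finger genes had 13 members among 2250 island cytosines (0.578%) and solute carrier genes 15 among 2240 (0.67%), near the 0.61% of all island cytosines. *Gm* genes had 35 of 3586 (0.976%) and *Rik* transcripts 22 of 3111 (0.707%). *Hox* genes had 3 of 300, all at *Hoxa11*, cytochrome P450 genes 2 of 95, olfactory and vomeronasal receptor genes 0 of 10, and keratin genes 0 of 3. Clustered protocadherins had no island cytosine in the table.

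The 17 members outside CCGG belonged to 4 genes, *Gm49980* with 12, *Mia3* and *Gm21863* with 2 each, and *Reg2* with 1. The 31 bases around the cytosine occurred more than once in the chromosomes of mm10 for 15 of the 17, against 24 of all 952 members. Stretches at *Mia3* and *Gm21863* are printed to show the CpGs around a member, and each CG is in capitals. Both are on the minus strand of mm10 and outside annotated exons, and a member lies in the middle of each. All 3 cytosines listed in the *Mia3* stretch were members.
Mia3, chr1:183354961-183355061, minus strand: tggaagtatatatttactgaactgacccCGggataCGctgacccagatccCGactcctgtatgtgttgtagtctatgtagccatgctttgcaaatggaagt
Gm21863, chr12:19954886-19954986, minus strand: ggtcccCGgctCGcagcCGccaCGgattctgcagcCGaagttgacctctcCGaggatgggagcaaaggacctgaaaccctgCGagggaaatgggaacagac

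*Gm49980* (ENSMUSG00000117465), a lincRNA gene on chromosome 18, was the only promoter where both cytosines of a CpG were members. All 13 of its listed island cytosines were members, with levels from 91.4% to 98.6%, and 12 of them made up 6 CpGs with both strands at 80% or more. They lay 24 to 153 bases upstream of the start. The lines had 95.3%, 98.1%, 96.5% and 90.1% (29, 37, 44 and 45) and 98.3%, 96.2%, 95.2% and 97.7% (11, 17, 20 and 21). The groups overlapped, and the means lay 1.83 percentage points apart, with SDs of 3.46 and 1.40 (n = 4 each). The exact permutation p for the members of this promoter, two-sided and not adjusted, was 0.486. It is a description, since the members were chosen by the levels of these lines. Copies of the 31 bases around its cytosines numbered 2 to 126, and whether reads from other copies were counted here was not tested. *Mia3*, which exports collagen from the endoplasmic reticulum, had 3 members on the minus strand, 971 to 993 bases upstream of the start. They were at 97.0% to 99.3%, with no partner listed on the plus strand, and each was found once in mm10. These 3 were all the cytosines listed for their island. The gene had 10 island cytosines in the table, and those that were no members had a median of 2.69%. At *Gm21863* the member at position 19954936, which lies 431 bases downstream of the start, had 62.2%, 94.1%, 82.6% and 63.2% in the control-F1 lines and 100%, 89.4%, 100% and 100% in the ICSI-F1 lines. Its difference of 21.8 percentage points was 28.0 without line 37, its sequence had 9 copies, and its coverage ran from 17 to 136 scaled reads. The other member there, at position 19954880, differed by -0.76 percentage points. *Reg2*, a gene of the regenerating islet-derived lectin family, had a member 11 bases upstream of the start at 94.9%, and the 31 bases around it occurred 5784 times.

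The threshold cut through a continuous range of levels. The lowest members were at *Pcdh7*, a protocadherin gene (80.05%), *Rab8a*, a small GTPase of vesicle traffic (80.06%), and *Irf2bp2*, a transcriptional corepressor gene (80.1%). Just below the threshold were sites at *Larp4b*, an RNA binding protein gene, *Gm13889* and *Arid3a*, a transcription factor gene, at 79.94% to 79.97%. All 6 were CCGG cytosines with the next CCGG 262 to 367 bases downstream, and line 37 was the lowest line at each of them, with 22.1% to 53.4%.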

How the data were processed

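RRBS was performed on 8 GS cell lines with MspI digestion, a Zymo-Seq kit and paired reads of 150 bases. Per the labels and the study's methods, the authors trimmed reads with Trim Galore 0.5.0 in its RRBS and non-directional modes, aligned them to mm10 with Bismark 0.20.0 and counted cytosines with methylKit (1.16.0 in the submitters' processing notes). The deposited values are scores: methylated and unmethylated reads per cytosine that methylKit scaled between lines and rounded, kept at 10 or more reads in every line, with strands separate. They are therefore not raw counts, so no count test on unscaled reads was possible. Scaled reads per line summed to 16184934 to 18017992 over the table, with medians of 77 to 89 per cytosine, and all its sample columns were used.

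Levels were computed with Python 3.11.15 (numpy 2.4.6, pandas 2.3.3) as methylated over all scaled reads. MspI distances and sequences were read from RefSeq's GRCm38 genome with pyfaidx 0.9.0.4, and exons from GENCODE. The logistic model used R 4.3.3 with limma 3.58.1 (6 residual degrees of freedom per site, Benjamini-Hochberg over all cytosines). Groups came from sample titles. Members and gene lists were chosen with earlier results of these data known. Named promoters were the 5 with the most members and the 10 with the most among genes that are neither *Gm* nor *Rik*, the 4 largest differences by the 20% rule, listed genes with a member, and the 3 sites on either side of the threshold. Alternatives covered the threshold, coverage, merged strands, summed reads, autosomes, library sets, other models and each line left out. Sequence from chromosome 18 is not shown.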

Additional observations from a re-analysis of the deposited data

Results flagged for a closer look

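In 66 groups of 4 lines (member classes, named promoters and called members), a line was marked when its gap to the nearest of the others was unusually large for the range of its group by Dixon's test, which chance does in about 1 of 20 groups. It was met 6 times. At the members of *Mcl1*, control-F1 line 37 had 78.5% and the other control-F1 lines 93.6% to 96.1%. At *Gdf9*, control-F1 line 37 had 45.8% and the others 91.2% to 100%. At the members of *Sim2*, ICSI-F1 line 11 had 82.5% and the other ICSI-F1 lines 95.8% to 96.8%. At the called member of *Bcas3*, ICSI-F1 line 11 had 83.3%, at that of *Gm21863*, line 17 had 89.4%, and at that of *Npy*, line 17 had 91.7%, with the other 3 ICSI-F1 lines at 100% in each case. Any value under 100% would have been marked in these 3 groups, so the chance rate does not hold for them.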

How the results depend on the processing

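The number of cytosines that met the rule was 952, and 524 remained when every line had to have at least 20 scaled reads. With the strands of a CpG merged, 99 CpGs met the rule, of which 93 had 1 strand listed, and 17 members were outside CCGG. Leaving out each line in turn gave 911 to 1112 members. The group difference of 2.23 percentage points was 6.54 at members with the next CCGG over 200 to 600 bases downstream, 3.99 at a mean level of 70% or more, 0.0578 at 90% or more and 0.152 as a median over members, and ran from -0.504 to 3.54 when 1 line was left out. The 9 hypermethylated members (0.945%, against 0.274% of all promoter cytosines) became 100 with a limit of 10 percentage points (10.5%, against 0.841%), 0 when groups might not overlap (0%, against 0.0673%), 27 with reads summed over the lines of a group (2.84%, against 0.434%), 5 with at least 20 scaled reads (0.954%, against 0.233%), 1 with strands merged (1.01%, against 0.251%), 1 outside CCGG, 110 in library set 1 alone (11.6%, against 0.871%), 2 in set 2 alone (0.21%, against 0.42%) and 2 to 49 when 1 line was left out (0.21% to 5.15%, against 0.2% to 0.545%). The lowest of these was without line 37 and the highest without line 44; they were 16 without line 29, 33 without line 45 and 21 without line 11. The 0 hypomethylated members became 4 with a limit of 10 percentage points (0.42%, against 0.519%) and 1 in set 2 alone (0.105%, against 0.264%), and stayed 0 with each line left out. Members with separate groups numbered 9 to 23 (ICSI-F1 higher; 0.945% to 2.42%, against 0.634% to 1.72% of all promoter cytosines) and 9 to 20 (lower; 0.945% to 2.1%, against 0.895% to 2.66%) with 1 line left out. The logistic model gave 0 members at a false discovery rate of 0.05 in the unmoderated, library set, limma, coverage, halved-read and line-left-out versions too, with 23 to 95 members at an unadjusted p under 0.05. Some versions did pass cytosines that were no members: 70 of 192970 without line 44, 16 of 195275 without line 17 and 9 of 195185 without line 37. At least 20 scaled reads gave 8 of 176578, and the others 6 or fewer. The 23 members were of 932 without line 37, beside 14543 of 195185 cytosines. The 95 were of 930 without line 44, beside 14078 of 192970 cytosines. Of 295 alternatives for single promoters and sites, 292 moved the difference by less than the spread between lines. A further 3 moved it by more (at *Clasp2* and *Kcnj4*) and 0 reversed a called one. That spread was taken with line 37 included, so the tally does not show that the called differences were stable. Without line 37, every called difference except that at *Gm21863* fell, to between 5.24 (*Napepld*) and 14.4 percentage points (*Sim2*). All of these were tallied as less. The members at *Snapc3*, *B4galnt2* and *Kcnk12* were tallied both as promoter and as site. The choices by downstream distance and outside CCGG, and the counts of separate groups with a line left out, were added after seeing the data. The cause of these changes was not tested. Coverage of 10 to 30 reads limits single levels to steps of several percentage points. No paired analysis was possible because the groups share no replicate numbers in the labels.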
